A study of Rattus norvegicus with 6 samples.

Results

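Free leucine in place of part of the casein was compared with casein alone in rat gastrocnemius, the large calf muscle, on 4 of the 6 arrays of the series. These were the 2 arrays titled as leucine muscle and the 2 titled as casein muscle, and all 14506 named genes entered the comparison. The rats were male Sprague-Dawley with diet-induced obesity, and were 12 weeks old when they began 8 weeks of free access to a diet rich in fat and sucrose, so that they were 20 weeks old at the end. In every group 10% of the energy came from protein, at 4.6 kcal/g of diet. Casein alone supplied it in the control group. In the leucine group 7.1% of the energy was casein and 2.9% was free leucine. The remaining 2 arrays came from rats fed complete dairy protein (skim milk powder), and their values are set beside the others where they help to place a difference. With 4 rats per diet in the design, the labels state neither whether each array is from a separate rat nor whether RNA was pooled, so the p-values measure only the spread between these samples. No strain, gene or transgene differed between the diets.

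Leucine is an essential branched-chain amino acid and a nutrient signal in muscle. In the cell it is sensed by sestrins and at the lysosome, where the Rag GTPases bring the kinase complex mTORC1 to its activator Rheb, and mTORC1 then promotes protein synthesis. Muscle also begins the breakdown of leucine, which is transaminated by Bcat2, oxidatively decarboxylated by the Bckdh complex and carried on through isovaleryl-CoA to acetyl-CoA. Gastrocnemius is made mostly of fast fibres, with some slow fibres, capillaries, connective tissue, tendon insertions, fat cells and resident immune cells.

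Each value below is a log2 signal, so that a difference of 1 is a 2-fold difference, and levels of different genes are not compared. The labels name gastrocnemius, while the protocol texts mention liver. Fast-fibre genes had medians between 12.1 and 12.7 on the 6 arrays. Alb, the plasma protein albumin made by hepatocytes, stood at 4.81 and 9.80 on the leucine arrays, 9.48 and 11.7 on the casein arrays and 8.11 and 5.54 on the dairy arrays. The casein arrays were the least alike of any diet's pair, with a correlation of 0.973 against 0.991 for leucine and 0.990 for dairy. Between the casein arrays 603 genes differed by over 2-fold, between the leucine arrays 112 and between the dairy arrays 163. Casein array 2 stood apart, so differences are given with the value on each casein array or against casein array 1 alone.

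In limma, a linear model fitted to every gene, 0 genes passed an adjusted p of 0.05, and the lowest adjusted p was 0.353. At an unadjusted p under 0.05 there were 691 genes higher with leucine (4.76% of the genes tested) and 703 lower (4.85%). Values named below are therefore differences that did not pass over all genes. A second description was whether both leucine arrays lay on the same side of both casein arrays. They lay above both for 2312 genes (15.9%) and below both for 2264 (15.6%), and above all 4 other arrays for 1144 (7.89%) and below them for 1163 (8.02%). With 2 arrays against 2 the smallest two-sided p of an exact permutation test is 0.333, so such separation cannot pass a threshold by itself. Counts of list members apart above or below casein are to be read beside the shares of 15.9% and 15.6% of all genes. Over 2-fold differences of the means numbered 71 higher (0.489%) and 142 lower (0.979%), and both arrays of a diet lay apart for 57 and 92 of these. Against casein array 1 alone 73 genes (0.503%) were over 2-fold higher and 59 (0.407%) over 2-fold lower. Of the 71 and the 142, 19 and 38 were also past 2-fold against that array, while 6 and 14 changed sign. Centring the arrays on their medians moved the median difference of all genes by 0.101, and turned the unadjusted split from 49.6% higher to 78.8% higher, so small shared shifts depend on the scaling.

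The widest gaps upward, measured from the lower leucine array to the higher casein array, belonged to Actc1 and Sln. Actc1, the cardiac isoform of alpha-actin, which is high in developing muscle, read 9.19 and 9.59 with leucine, 7.0 and 6.35 with casein and 7.52 and 8.31 with dairy. Its leucine arrays lay above all the others. The log2 difference from casein was 2.72 ± 0.38, a 6.59-fold difference, or 2.40 against casein array 1 alone. Errors here and below are standard errors (SE) of the fit to all 6 arrays, 2 per diet, with the dairy arrays included. They are moderated, which means that limma draws the variance of each gene toward a value common to all genes. Sln, sarcolipin, a small membrane protein that uncouples the calcium pump of the sarcoplasmic reticulum from transport, read 7.70 and 9.73 with leucine against 6.03 and 6.53 with casein. The difference of 2.43 ± 1.09 had a wide error. The leucine arrays were far apart, and so were the dairy arrays, at 5.21 and 7.66, which enter the same error and spanned both casein values. Kcnma1, the pore subunit of the BK potassium channel, which opens on calcium, was by contrast tight within each diet. It read 7.83 and 7.78 with leucine, 6.67 and 6.66 with casein and 7.27 and 7.11 with dairy, a difference of 1.14 ± 0.08 with the dairy arrays in between.

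For 644 of the 2312 genes apart above casein, the gap was wider than the distance between the arrays of either diet. Both dairy arrays lay below the leucine arrays for 1144 of the 2312. Among the 15 genes with the widest gap upward these numbers were 13 and 14. These are descriptions of genes chosen for their gap. They included Nqo2, a quinone reductase, which read 6.54 and 6.64 with leucine against 5.63 and 5.55 with casein, and 5.75 and 5.74 with dairy. Asrgl1, which hydrolyses asparagine and isoaspartyl peptides, read 6.10 and 6.09 against 5.03 and 5.15. Nup37, a subunit of the nuclear pore, read 6.04 and 6.02 against 4.84 and 5.05. In these 3 genes the arrays of a diet lay closer to each other than to the other diet. Polr3b, the second largest subunit of RNA polymerase III, stood higher by 0.92 ± 0.24, or 0.88 against casein array 1. Det1, part of a ubiquitin ligase adaptor complex, stood higher by 0.97 ± 0.12, and Kremen1, a receptor that dampens Wnt signalling, by 1.04 ± 0.15. Against casein array 1 alone these were 1.03 for Det1 and 0.87 for Kremen1. Tmem69 was 1.04 ± 0.17 higher (0.81 against casein array 1), and Tm6sf1 1.46 ± 0.33 higher (1.28), though a dairy array (5.88) lay above the lower leucine array (5.72) for Tm6sf1.

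**Figure D1:**
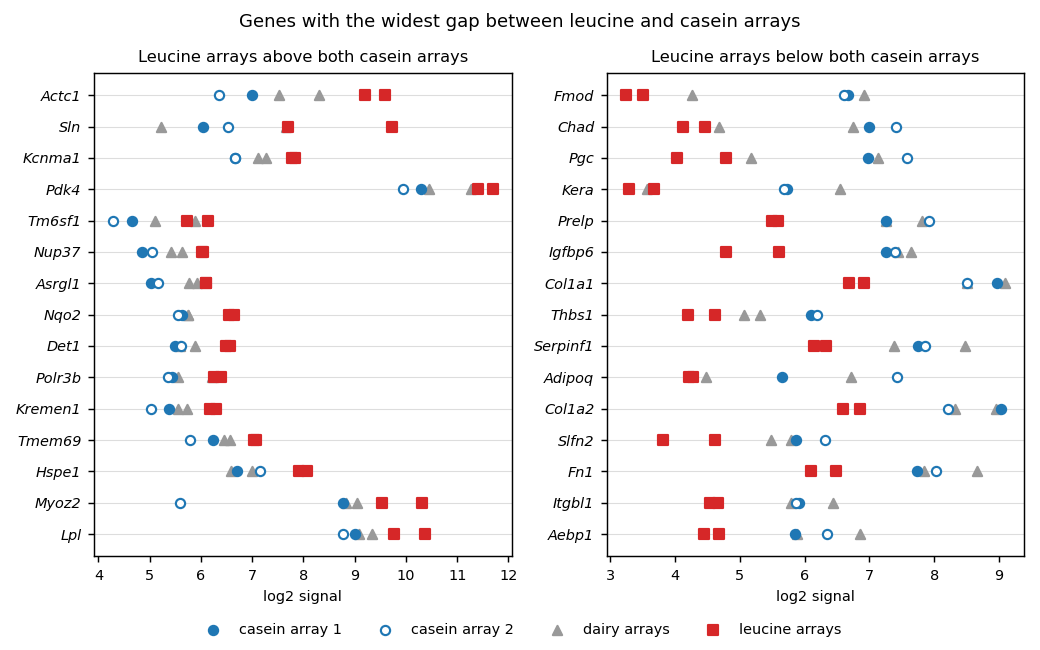
Log2 signal (horizontal axis) on each of the 6 arrays for the 15 genes per direction with the widest gap between leucine and casein arrays and a mean level above the median gene. Squares are leucine, circles casein (open for array 2) and triangles dairy. Fmod shows the widest gap, with leucine arrays at 3.24 and 3.50 and casein arrays at 6.67 and 6.61.

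Of the 15 genes with the widest gap downward, 9 were in the collagen, matrix or tendon lists. Chad, Kera and Prelp count among the 9 only through the tendon list, which was drawn up after the values were seen. Genes outside these lists included Pgc, Igfbp6, Adipoq and Slfn2. Fmod, fibromodulin, a small proteoglycan that binds collagen fibrils and is abundant in tendon, read 3.24 and 3.50 with leucine and 6.67 and 6.61 with casein. The casein arrays nearly coincided and the leucine arrays lay below them, with a difference of −3.27 ± 0.90. The leucine readings were close to the medians of whole arrays (3.46 to 3.56), and without background readings no fold is given for Fmod. The dairy arrays, whose spread enters the error of the fit, disagreed with each other, at 4.27 and 6.91. Chad, chondroadherin of cartilage and tendon, showed the same layout with 4.46 and 4.13 on leucine arrays, 6.99 and 7.41 on casein arrays and 4.68 and 6.75 on dairy arrays. Kera, keratocan, another small leucine-rich proteoglycan, read 3.30 and 3.68 against 5.73 and 5.69, and a dairy array (3.57) lay within the leucine values while the other (6.54) exceeded both casein arrays. For these 3 genes dairy array 1 was low like the leucine arrays and dairy array 2 was not. Prelp, which anchors basement membranes to connective tissue, differed in this: its dairy arrays, at 7.26 and 7.81, lay with the casein arrays at 7.26 and 7.92, and the leucine arrays stood at 5.49 and 5.60 (−2.04 ± 0.30).

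A list of tendon and cartilage matrix genes was drawn up after these values had been seen, so its direction is not independent. Its 9 measured members were all lower with leucine than the casein mean, where 50% of all genes were lower and 49.1% higher. All 9 were lower than casein array 1 too, where 47.4% of all genes were lower and 47.4% higher. Both leucine arrays lay below both casein arrays for 8 of the 9. The median was −0.84, or −1.05 against casein array 1 alone, next to 0.00 over all genes. Scx, the transcription factor that marks tendon cells, read 4.67 and 5.35 against 6.04 and 5.65. Comp, cartilage oligomeric matrix protein, read 3.80 and 3.90 against 4.74 and 4.24. Tnmd, tenomodulin, a marker of mature tendon cells, was dim and barely apart, at 2.56 and 2.48 against 3.03 and 2.57. Median levels of the list were 3.36 and 3.90 on the leucine arrays, 5.73 and 5.65 on the casein arrays, and 3.96 and 5.24 on the dairy arrays. How much tendon was in each piece of muscle was not tested, and in a bulk sample fewer cells of a type and less RNA per cell cannot be told apart.

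Fibrillar collagens were lower with leucine whichever casein array served as control. Col1a1 and Col1a2, the chains of type I collagen, read 6.69 and 6.91, and 6.86 and 6.59, on the leucine arrays. On the casein arrays they read 8.97 and 8.51, and 9.03 and 8.22. The dairy arrays, at 9.10 and 8.50 for Col1a1 and 8.96 and 8.33 for Col1a2, overlapped casein, so that only the leucine arrays were low. Col3a1, the chain of type III collagen of loose connective tissue, differed less, at 6.49 and 6.41 against 7.20 and 7.11 (−0.70 ± 0.17). Col4a1 of basement membranes stood at 5.40 and 5.46 against 5.92 and 6.02. Of 19 measured collagen chains, 18 were lower than the casein mean and 0 higher, and 13 lay apart below with 0 above. Their median was −0.35, or −0.46 against casein array 1 alone and −0.34 against casein array 2 alone. At an unadjusted p under 0.05, 10 of the 19 were lower, and 0 passed over all genes.

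Other matrix genes and matrix enzymes followed, with 45 of 50 below the casein mean, 27 apart below and 2 apart above, a median of −0.40, and −0.25 against casein array 1. Thbs1, thrombospondin 1, a matricellular glycoprotein, read 4.62 and 4.20 with leucine, 6.10 and 6.19 with casein, and 5.07 and 5.32 with dairy. The dairy arrays were intermediate for Thbs1. They were not for Fn1, fibronectin, where leucine read 6.10 and 6.49, casein 7.73 and 8.03, and dairy 8.66 and 7.85. Dcn, the proteoglycan decorin, had a difference of −1.08 ± 0.24, and Mmp2, a gelatinase, read 6.21 and 6.03 against 7.05 and 7.05. Aebp1, a collagen-binding protein, and Itgbl1, a secreted integrin-like protein, had differences of −1.54 ± 0.38 and −1.28 ± 0.23. Serpinf1, pigment epithelium-derived factor, read 6.15 and 6.33 against 7.75 and 7.85. The members that lay above casein, Plod2 and P4ha1, are hydroxylases that modify procollagen inside the cell. All 27 genes apart below casein were also below both dairy arrays, against 1163 of the 2264 such genes over all genes.

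Of the genes of myostatin, activin and IGF growth control, which include receptors and Smad proteins, 17 of 22 measured members were below the casein mean and 7 lay apart below, against 1 above. Igfbp6, a binding protein with a preference for IGF2, read 5.61 and 4.79 with leucine against 7.25 and 7.40 with casein and 7.44 and 7.64 with dairy, a 4.36-fold difference. Mstn, myostatin, the inhibitor of muscle growth made by the fibres themselves, read 6.55 and 5.97 against 7.32 and 8.08. Of its dairy arrays, at 7.38 and 6.77, the first lay within the casein values and the other between the diets. The log2 difference for Mstn was −1.44 ± 0.39, or −1.06 against casein array 1. Its receptor Acvr2b and its binding partner Fst differed little, by 0.06 ± 0.11 and −0.09 ± 0.07. Inhbb, an activin subunit, read 5.53 and 5.57 against 5.83 and 5.96. The list median was −0.12, and −0.05 against casein array 1. After centring on array medians it was −0.02.

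Genes of fatty acid uptake and oxidation and targets of the PPAR receptors were mostly higher. Of 44 measured members 40 were above the casein mean, 23 lay apart above and 0 below, against 15.9% and 15.6% of all genes, and 30 of 44 were above casein array 1. Pdk4, the kinase that holds back the oxidation of pyruvate by inhibiting pyruvate dehydrogenase, read 11.69 and 11.40 with leucine against 10.29 and 9.94 with casein. Lpl, the lipase that frees fatty acids from circulating triglyceride, read 9.76 and 10.36 against 9.0 and 8.78, with dairy at 9.07 and 9.34. For both genes the leucine arrays lay above the other 4, and against casein array 1 alone the differences were 1.25 for Pdk4 and 1.06 for Lpl. Fabp3, the carrier of fatty acids in the cytosol of muscle, read 10.79 and 10.69 against 9.94 and 7.83. Cd36, the fatty acid transporter of the cell surface, read 10.24 and 10.21 against 9.70 and 8.62. In these 2 genes casein array 2 was far below casein array 1, which widened the difference of the means.

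Casein array 2 was the lowest of all 6 arrays for 34 of the 44 fatty acid genes, beside 3199 of all 14506 genes. The list median was 0.63 against the mean of both casein arrays, 0.24 against array 1 alone and 1.07 against array 2 alone. Etfdh, which passes electrons from fatty acid oxidation to ubiquinone, read 9.37 and 9.26 against 8.55 and 7.88. Decr1, needed to oxidise unsaturated fatty acids, read 7.76 and 8.07 against 7.27 and 6.36. Ppara, the nuclear receptor for fatty acids in oxidative tissue, read 6.26 and 5.74 against 5.20 and 4.74, and its dairy arrays, at 5.26 and 5.53, lay below the leucine arrays too. Ucp3, a mitochondrial carrier of muscle induced by fatty acids, read 9.15 and 9.0 against 7.90 and 8.53. Cpt1b, the muscle gate of fatty acid entry into mitochondria, overlapped, at 9.34 and 9.33 against 9.40 and 8.61. Aqp7, a glycerol channel counted here among the adipocyte markers, read 6.94 and 6.25 against 5.79 and 4.96, opposite to the fat-cell hormones described further on.

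The mitochondrial lists leaned the same way but less against casein array 1. Of 29 tricarboxylic acid cycle and pyruvate genes 27 were above the casein mean and 14 apart above, with 0 apart below, a median of 0.32, and 0.16 against casein array 1. Sdhd, an anchor of succinate dehydrogenase, read 9.51 and 9.30 against 8.84 and 8.86. Idh3b, a subunit of isocitrate dehydrogenase, read 9.85 and 9.85 against 9.16 and 9.38. Cs, citrate synthase, overlapped, at 10.21 and 10.12 against 10.20 and 9.98. Of 66 subunits of respiratory complexes I to V, 27 lay apart above and 2 below, with a median of 0.22. Against casein array 1 alone the median was 0.03, and 34 were higher and 32 lower. Cox7c of complex IV held against either array, at 10.18 and 10.30 with leucine, 9.51 and 9.63 with casein, and 9.80 and 9.92 with dairy. Atp5pf, a coupling factor of ATP synthase, read 6.59 and 6.74 against 5.78 and 5.95.

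Of 69 mitochondrial ribosomal proteins 25 lay apart above and 0 below, with a median of 0.17, and 0.09 against casein array 1. Mrps14 read 6.89 and 6.82 against 5.79 and 6.14, and Mrpl47 read 7.79 and 7.60 against 6.95 and 6.67. Both were above their dairy arrays. Of 32 genes of mitochondrial biogenesis and energy sensing 10 lay apart above and 2 below, with a median of 0.27, and 0.08 against casein array 1. Tfb2m, a factor that starts mitochondrial transcription, read 7.80 and 7.65 against 6.95 and 7.09, and Esrrg, an orphan receptor that drives oxidative genes, read 6.38 and 6.83 against 5.89 and 5.25. Prkaa1, a catalytic subunit of the energy sensor AMPK, read 6.78 and 6.98 against 6.35 and 6.48. Ppargc1a, the coactivator PGC-1 alpha, was barely apart, at 6.92 and 6.26 against 6.20 and 6.19. Among cytosolic ribosomal proteins 8 of 66 (12.1%) lay apart above and 18 (27.3%) below, beside 15.9% and 15.6% of all genes, with a median of −0.03. The ribosomal median was −0.14 against casein array 1 alone, with 23 higher and 42 lower, and after centring on array medians it was 0.07.

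The slow-fibre difference rested on casein array 2. Of 15 measured slow-fibre contractile genes, 15 were above the casein mean and 13 were over 2-fold higher, with a median of 2.17. Against casein array 1 alone the median was 0.09, with 9 higher and 6 lower, and against array 2 alone it was 3.49. Casein array 2 was the lowest of the 6 arrays for 14 of these 15, beside 3199 of all 14506 genes. Myh7, the slow myosin heavy chain, read 10.92 and 10.86 with leucine but 11.37 and 6.07 with casein, and Tnnc1, slow troponin C, read 10.11 and 10.28 but 10.53 and 4.46. The leucine arrays lay just below casein array 1 for both. Tnni1 and Tnnt1, slow troponins I and T, read 10.02 and 5.44, and 10.61 and 5.90, on the casein arrays, and Myl2, a slow myosin light chain, 9.38 and 5.35. The leucine values of Myl2, 8.01 and 9.40, did not both exceed casein array 1. The fast oxidative myosin Myh2 was also low on casein array 2, at 11.56 and 8.26 with casein, but its leucine arrays, at 11.89 and 11.88, lay above casein array 1 too.

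A smaller set lay above casein array 1 as well. Myoz2, calsarcin 1, a Z-disc protein of slow fibres, read 9.53 and 10.31 against 8.76 and 5.59, with dairy at 8.84 and 9.05. Myl3, a slow essential light chain, read 11.17 and 11.28 against 10.49 and 7.23. Atp2a2, the slow calcium pump, read 11.01 and 10.66 against 10.32 and 7.92, and Casq2, the calcium store protein of slow and cardiac muscle, read 8.24 and 9.24 against 7.91 and 4.91. Against casein array 1 alone the differences were 1.16 for Myoz2, 0.73 for Myl3, 0.51 for Atp2a2 and 0.83 for Casq2. With Sln and Pln, phospholamban, these made up the 6 of 15 slow-fibre genes that were apart.

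**Figure D2:**
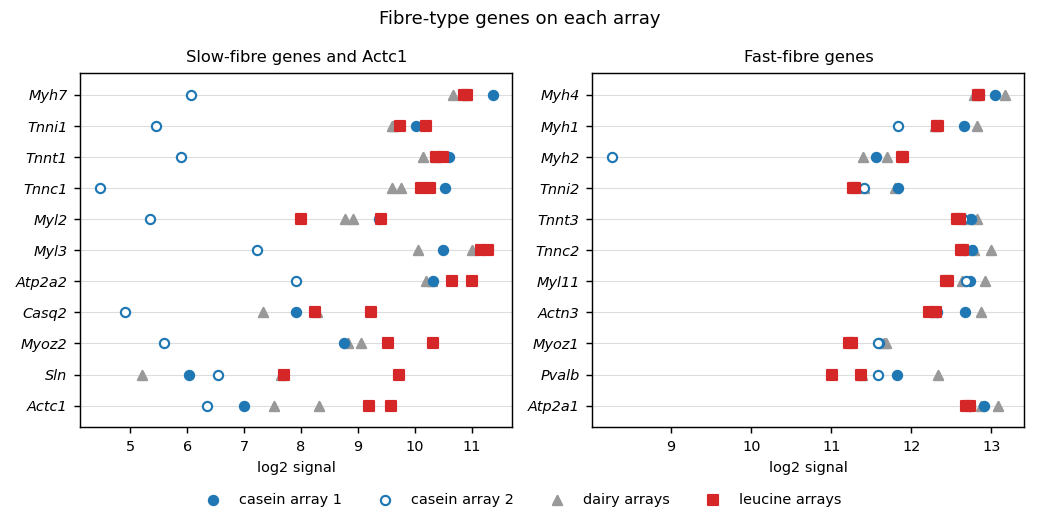
Log2 signal (horizontal axis) of slow-fibre genes with Actc1 (left) and fast-fibre genes (right) on each array; squares are leucine, circles casein (open for array 2), triangles dairy. For Myh7 casein array 2 sits at 6.07 while casein array 1 sits at 11.37 and the leucine arrays at 10.92 and 10.86.

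Fast-fibre genes differed less and in the other direction. Of 14 measured members 12 were below the casein mean, 8 lay apart below and 1 apart above, with a median of −0.11, and −0.24 against casein array 1 alone. The median was −0.01 after centring on array medians. Myoz1, calsarcin 2 of fast fibres, read 11.22 and 11.26 with leucine against 11.60 and 11.59 with casein and 11.69 and 11.66 with dairy, a difference of −0.35 ± 0.06. Tnni2, fast troponin I, read 11.27 and 11.30 against 11.83 and 11.40, and Pvalb, the calcium buffer parvalbumin of the fastest fibres, read 11.37 and 11.01 against 11.83 and 11.59. Actn3, the fast Z-disc actinin, read 12.30 and 12.23 against 12.66 and 12.32. Myh4, the main fast myosin, differed by −0.10 ± 0.15. Glycolytic genes showed 5 of 32 apart above (15.6%) and 8 below (25%), beside 15.9% and 15.6% of all genes, with a median of −0.06. The glycolytic median was −0.15 against casein array 1 alone, with 10 higher and 22 lower, and after centring it was 0.04. Pfkfb3, which makes the activator of phosphofructokinase, read 6.15 and 7.11 against 7.87 and 9.25.

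The genes of leucine sensing and mTORC1 were split between directions. Slc38a9, the lysosomal transporter that reports arginine and lets leucine out of the lysosome, read 5.13 and 5.19 with leucine, 4.38 and 4.30 with casein and 4.62 and 4.64 with dairy. Its leucine arrays lay above all others with a log2 difference of 0.82 ± 0.06. The leucine sensors measured, Sesn1 and Sesn3, overlapped, with 0.04 ± 0.17 and 0.15 ± 0.38. Kptn, a subunit of the KICSTOR complex that holds mTORC1 in check, read 4.84 and 4.78 against 5.08 and 5.35. Of 20 measured genes of lysosomal amino acid sensing 5 (25%) lay apart above and 3 (15%) below, beside 15.9% and 15.6% of all genes. Their median was 0.11, and −0.01 against casein array 1.

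Of 24 genes of the mTOR core and translation control 6 (25%) lay apart above and 7 (29.2%) below, beside 15.9% and 15.6% of all genes. Their median was 0.02, and 12 were higher and 12 lower than casein array 1. Rptor, the scaffold of mTORC1, read 5.64 and 5.66 against 5.33 and 5.26, and Rps6kb1, the S6 kinase, read 8.17 and 8.07 against 7.91 and 7.90. Eif4ebp1, the translation repressor that mTORC1 phosphorylates, read 6.99 and 7.17 against 7.58 and 8.09. Tfeb, the lysosomal transcription factor that mTORC1 keeps out of the nucleus, read 6.22 and 6.27 against 6.79 and 6.70, and its dairy arrays at 6.59 and 6.66 lay above the leucine arrays. Eef2k, the kinase that slows elongation, read 7.20 and 6.73 against 7.51 and 7.46. Mtor itself overlapped, at 7.18 and 7.22 against 7.18 and 6.94. Transcript levels do not report the activity of these kinases.

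Branched-chain amino acid breakdown was more often higher than the casein mean, in 18 of 22 measured members. Of the 22, 10 lay apart above and 1 below, and the median was 0.21. Against casein array 1 alone the median was 0.12, with 12 higher and 10 lower. Of the first steps, Bcat1, the cytosolic transaminase, was dim and was the member apart below, at 2.76 and 2.94 against 3.17 and 3.76. Bcat2, the mitochondrial transaminase, overlapped at 6.90 and 7.19 against 7.87 and 7.03. Bckdha, a subunit of the branched-chain dehydrogenase, differed by −0.06 ± 0.16, and Bckdk, its inhibitory kinase, by −0.12 ± 0.28. Later steps lay apart above. Auh, which hydrates methylglutaconyl-CoA on the leucine branch, read 7.89 and 7.71 against 7.10 and 7.22, and Ivd, isovaleryl-CoA dehydrogenase of the same branch, read 8.73 and 8.79 against 8.44 and 7.82. Acadsb and Hibadh, on the isoleucine and valine branches, read 8.25 and 8.21 against 7.84 and 7.35, and 9.99 and 9.82 against 9.42 and 9.52.

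Among aminoacyl-tRNA synthetases 11 of 27 lay apart above and 3 below, with a median of 0.09, and 0.03 against casein array 1. The leucyl enzymes overlapped, Lars1 at 0.09 ± 0.25 and Lars2 at 0.13 ± 0.15. Yars2, the mitochondrial tyrosyl enzyme, read 6.68 and 6.30 against 5.75 and 5.70. The list of the ATF4 amino acid response, named for the factor raised when amino acids are short, holds Atf4 itself among its members. It had 1 of 29 apart above and 9 below, with a median of −0.08, or −0.03 against casein array 1, that became 0.02 after centring. Nupr1, a small stress-response protein, read 5.11 and 4.95 against 5.92 and 5.77, with dairy at 5.77 and 6.17, and Cth, which makes cysteine, read 3.14 and 3.03 against 3.64 and 4.55. Asns, asparagine synthetase, a standard ATF4 target, was dim and barely apart, at 2.71 and 2.92 against 2.97 and 3.73. Of 20 amino acid transporters 3 (15%) lay apart above and 4 (20%) below, beside 15.9% and 15.6% of all genes. Slc7a5, the large neutral amino acid transporter that carries leucine, stood at 3.20 and 3.12 against 3.22 and 4.77, and its partner Slc3a2 overlapped. Slc6a8, the creatine transporter, read 7.98 and 7.93 against 7.30 and 7.31, with dairy between at 7.74 and 7.79.

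Muscle breakdown genes were mixed, with 6 of 36 (16.7%) apart above and 3 (8.33%) below, beside 15.9% and 15.6% of all genes. Their median was 0.10, or 0.14 against casein array 1. The muscle ubiquitin ligases Fbxo32 (atrogin-1) and Trim63 (MuRF1) overlapped, with 0.34 ± 0.26 and −0.20 ± 0.41. Gabarap and Atg12, which build the autophagosome, read 8.03 and 8.08 against 7.70 and 7.76, and 6.51 and 6.51 against 6.18 and 6.21. Proteasome subunits were split, with 8 of 37 (21.6%) apart above and 9 (24.3%) below.

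The chaperones that lay above casein included the mitochondrial chaperonin pair, whose promoters are shown because they share a heat shock element, the binding motif of the heat shock factors. Hspe1 and Hspd1, the small and large subunits of the chaperonin that folds proteins imported into mitochondria, lie head to head with starts 290 bases apart. Hsph1 is a cytosolic nucleotide exchange factor. The stretches below come from the RefSeq promoter table of build GRCr8, 5′ to 3′ on each gene's own strand, at chr9:64084237-64084304 (plus strand) for Hspe1, chr9:64084237-64084287 (minus strand) for Hspd1, and chr12:10427302-10427367 (plus strand) for Hsph1. The first 2 are the opposite strands of a shared region. Capitals mark matches to GAANNTTCNNGAA on either strand, 2 overlapping ones at Hspe1 and Hspd1 and 1 at Hsph1.
Hspe1: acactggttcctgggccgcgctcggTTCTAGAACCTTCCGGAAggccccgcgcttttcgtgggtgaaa
Hspd1: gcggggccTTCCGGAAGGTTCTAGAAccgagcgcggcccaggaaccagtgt
Hsph1: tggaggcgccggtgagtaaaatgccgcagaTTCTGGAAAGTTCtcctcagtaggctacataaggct

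Hspe1 read 7.92 and 8.07 with leucine, 6.71 and 7.15 with casein and 6.58 and 7.0 with dairy. Hspd1 read 8.98 and 8.93 against 8.60 and 8.20, and Hsph1 read 7.49 and 7.40 against 6.94 and 6.75. In all 3 the leucine arrays lay above the other 4, and the differences from casein array 1 alone were 1.29 for Hspe1, 0.36 for Hspd1 and 0.51 for Hsph1. Hspa8, the constitutive cytosolic Hsp70, read 12.37 and 12.42 against 12.16 and 12.24. Of 33 measured heat shock proteins and chaperones 10 lay apart above and 4 below, with a median of 0.14, and 0.23 against casein array 1. Members below were Calr and Pdia6, chaperones of the endoplasmic reticulum, at 7.77 and 7.94 against 8.26 and 8.26, and 6.83 and 6.74 against 7.14 and 7.09, with Sdf2l1 and Hspb2. The motif occurred in the 250 bases before the start of 0.452% of 11950 genes with a promoter in the table. Among 26 chaperones with a promoter it occurred in 4, which were Hspe1, Hspd1, Hsph1 and Hspa8, all among the 10 above casein, in 0 of the 2 below and in 0 of the 14 that overlapped. The matches of Hspe1 and Hspd1 are the same bases on opposite strands, counted for both genes. The motif was searched after the values were known, and a match describes letters and not a bound site.

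Interferon-stimulated genes were mostly lower with leucine. Of 43 measured members 35 were below the casein mean, 23 lay apart below and 3 above, with a median of −0.34, and −0.18 against casein array 1. The 3 above were Ifi44, Usp18 and Ifih1. Genes apart below are described as a tight part and a loose part, divided after the values were seen by how closely the casein arrays agreed. The 23 included 19 that were below both dairy arrays too, against 1163 of the 2264 genes apart below over all genes. In the tight part the casein arrays agreed. Isg15, a ubiquitin-like protein attached to others on interferon signalling, read 3.17 and 3.18 with leucine, 4.09 and 4.33 with casein and 4.25 and 3.87 with dairy. Ly6e, a surface protein that restricts virus entry, read 6.38 and 6.15 against 7.04 and 7.04, and Lgals3bp, a secreted glycoprotein, read 4.10 and 3.77 against 4.62 and 4.62.

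In the loose part casein array 2 was far above every other array. Gbp5, a guanylate-binding protein, read 4.17 and 4.09 against 4.66 and 8.65, and Cxcl10, a chemokine for T cells, read 3.08 and 3.33 against 3.78 and 7.72. For these the difference from casein array 1 alone was −0.53 and −0.58, against −2.52 ± 1.48 and −2.55 ± 1.54 from the mean of both. B2m, the light chain of MHC class I, had its leucine arrays below the dairy arrays as well. The stretches below show the interferon-stimulated response element, matched as GAAANNGAAA on either strand (capitals), in a gene of the tight part and in 2 of the loose part, again from RefSeq GRCr8 and on each gene's own strand. They lie at chr10:104127869-104127918 (minus) for Lgals3bp, chr2:233910923-233910972 (plus) for Gbp5 and chr14:15988816-15988852 (plus) for Cxcl10.
Lgals3bp: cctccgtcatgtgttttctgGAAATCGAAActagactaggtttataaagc
Gbp5: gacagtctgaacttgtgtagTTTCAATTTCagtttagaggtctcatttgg
Cxcl10: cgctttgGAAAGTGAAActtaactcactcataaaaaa

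The element was present in 3.24% of the 11950 promoters and in 22 of 31 interferon-stimulated genes with a promoter. By position it occurred in 10 of 17 that lay below casein, 2 of 2 that lay above and 10 of 12 that overlapped.

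Cytokine and macrophage genes rested mainly on casein array 2. Of 34 cytokine and acute inflammation genes 33 were below the casein mean, with a median of −0.73, but against casein array 1 the median was −0.03. Casein array 2 was the highest of the 6 arrays for 29 of the 34, beside 3124 of all 14506 genes. Il6, a cytokine also released by muscle, read 2.40 and 2.40 against 2.0 and 6.96, and Ccl2, which attracts monocytes, read 3.47 and 3.62 against 3.76 and 7.97. Socs3, the feedback inhibitor of cytokine signalling, was apart but in the same layout, at 3.64 and 3.53 against 4.20 and 7.71. Of 35 macrophage and complement markers 33 were below the casein mean with a median of −0.51, and against casein array 1 there were 17 higher, 17 lower and a median of 0.00. The members apart in both arrays were fewer, 13 of 35. Of these, 12 were below both dairy arrays, against 1163 of the 2264 genes apart below over all genes. C1qb, a chain of complement C1q, read 4.16 and 4.10 against 4.97 and 5.45, with dairy at 5.40 and 5.09. Csf1r, the receptor on which macrophages depend, read 5.36 and 5.21 against 5.73 and 6.01, while Cd68 and Adgre1 overlapped. Cd74, the invariant chain of class II presentation, read 6.99 and 6.80 against 7.55 and 8.53. Of 11 measured class II presentation genes 3 lay apart below and 1, RT1-DMb, above. Their median was −0.42, but −0.105 against casein array 1 alone.

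Clock genes form the loop that times daily rhythms in every cell, and the hour of sampling is not given in the sources used here. Of 18 measured clock genes 4 (22.2%) lay apart below casein, beside 15.6% of all genes, and 0 above, beside 15.9%, with a median of −0.08. The clock median was −0.15 against casein array 1 alone, and after centring it was 0.02. Nr1d1, the repressor REV-ERB alpha, read 5.86 and 6.11 with leucine, 7.46 and 6.81 with casein and 8.14 and 7.88 with dairy. Bhlhe40, a repressor of clock transcription also induced by many stimuli, read 7.97 and 8.38 against 9.13 and 9.93, and Tef, a D-box activator, read 7.47 and 7.32 against 7.86 and 7.62. For these 3 the leucine arrays were below the other 4. Dbp, the partner of Tef, overlapped, at 7.62 and 6.98 against 8.75 and 6.49, as did Bmal1, at 3.74 and 4.60 against 3.37 and 5.67. Bhlhe40, Tef and Nr1d1 share the E-box CACGTG, the site of the CLOCK and BMAL1 pair, in the 250 bases before their start, shown for 2 of them at chr4:143174205-143174260 (plus) and chr7:115206604-115206659 (plus), with the E-box in capitals.
Bhlhe40: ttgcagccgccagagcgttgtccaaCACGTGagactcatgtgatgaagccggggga
Tef: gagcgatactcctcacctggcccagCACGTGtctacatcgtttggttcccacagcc

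An E-box of these letters occurred in 7.08% of promoters, in 3 of the 4 clock genes below casein and in 1 of the 12 that overlapped, Bhlhe41. This search too followed the values.

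The difference of glucocorticoid-responsive genes turned with the choice of control. Their median over 21 measured members was −0.28 against both casein arrays, 0.25 against casein array 1 and −1.30 against casein array 2, and −0.68 without leucine array 1. Fkbp5, a co-chaperone of the glucocorticoid receptor and a standard target of it, read 7.57 and 7.17 with leucine, 5.26 and 7.69 with casein and 7.05 and 7.35 with dairy. For Fkbp5, then, casein array 1 was the array that stood apart. Tsc22d3 read 8.40 and 8.60 against 7.42 and 9.80, and Zfp36, which destabilises cytokine mRNA, read 7.72 and 6.66 against 5.47 and 9.90. The metallothioneins Mt1 and Mt2A, which bind zinc and respond to glucocorticoids, read 6.45 and 7.39, and 6.32 and 7.42, with leucine, and 6.68 and 11.17, and 6.83 and 11.12, with casein. In Tsc22d3 and Zfp36 the casein arrays lay on either side of all 4 others. Pik3r1, a regulatory subunit of PI3-kinase, lay apart above casein, at 8.16 and 7.67 against 6.57 and 7.35.

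**Figure D3:**
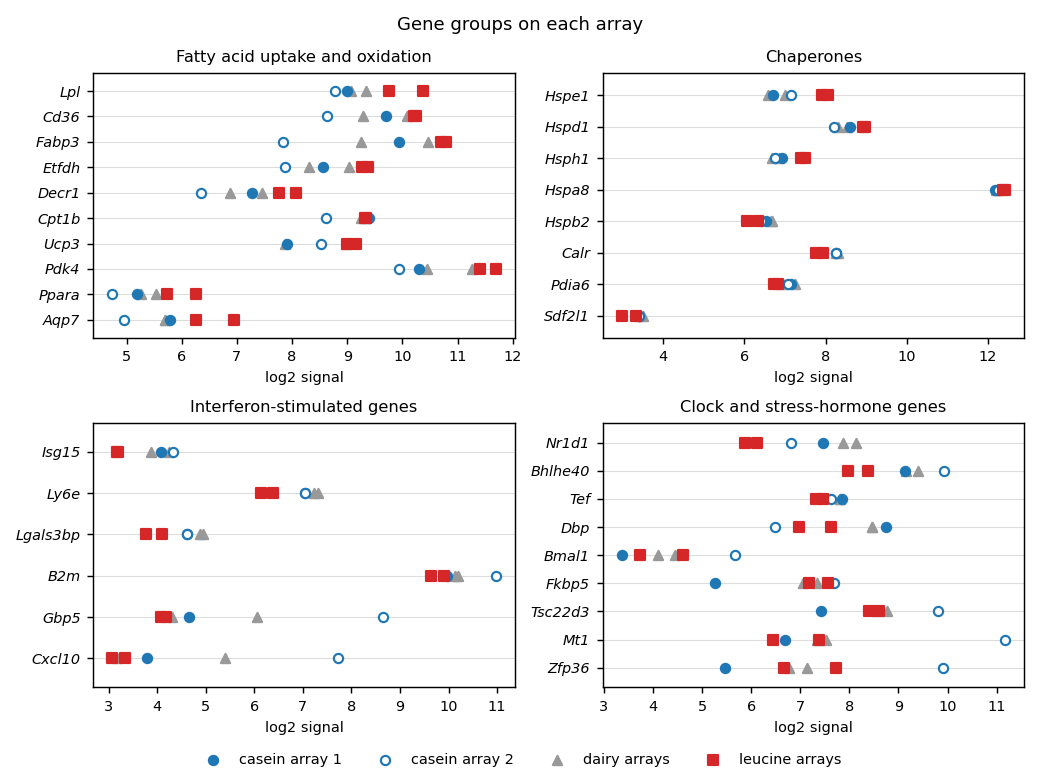
Log2 signal (horizontal axis) of fatty acid, chaperone, interferon-stimulated, and clock and stress-hormone genes on each array; squares are leucine, circles casein (open for array 2), triangles dairy. Hspe1 separates leucine (7.92 and 8.07) from casein (6.71 and 7.15), while for Zfp36 the casein arrays (5.47 and 9.90) bracket the rest.

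Markers of further cell types within whole muscle differed beside these groups, and their part in the differences above was not tested. Fat-cell hormones were lower: Adipoq, adiponectin, read 4.28 and 4.22 with leucine, 5.66 and 7.42 with casein and 6.72 and 4.48 with dairy, and Lep, leptin, read 3.24 and 2.79 against 3.96 and 5.09. Of 15 adipocyte markers 7 lay apart below and 1, Aqp7, above, with a median difference of −0.33, or −0.13 against casein array 1 alone and −0.52 against casein array 2 alone. Their median levels were 4.12 and 3.87 on leucine arrays, 4.15 and 4.96 on casein arrays and 5.11 and 4.13 on dairy arrays. Hepatocyte and plasma protein transcripts were below the casein mean in 33 of 33, with a median of −1.08, or −0.27 against casein array 1. It was −0.38 without leucine array 1 and −1.91 without leucine array 2. Their median levels were 3.10 and 4.46 on leucine arrays, 4.25 and 5.69 on casein arrays, and 3.87 and 3.11 on dairy arrays, so each diet's arrays differed among themselves. Endothelial markers showed 4 of 26 apart above (15.4%) and 5 below (19.2%), beside 15.9% and 15.6% of all genes. Mural cell markers showed 0 and 2 of 16, and lymphoid markers 0 and 1 of 25. Pgc, the protease precursor pepsinogen C, also had a wide gap, at 4.04 and 4.78 against 6.98 and 7.58, with dairy at 7.13 and 5.18.

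Of 11 measured erythroid genes 4 lay apart above casein and 2 below, with a median of 0.00. Hbb-b1 read 7.82 and 7.46 with leucine against 6.97 and 6.83 with casein, Hba-a3 read 6.31 and 6.69 against 5.46 and 6.24, and Hbe1 was dim and just apart above. Hbb overlapped, at 7.77 and 7.54 against 8.29 and 7.65. These near-identical copies can share probes, so their separate values are uncertain. The same holds for Mt1 and Mt2A.

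With casein array 1 as the only control, the genes furthest above it were Sln and Actc1, followed by Fkbp5 at 2.11, Cdkn1a at 1.82 and Zfp36 at 1.72. Cdkn1a, the cell cycle inhibitor p21, read 5.95 and 6.37 with leucine but 4.33 and 8.08 with casein. Hsp90aa1, the inducible Hsp90, read 8.51 and 8.91 against 7.14 and 8.57. Both leucine arrays lay below casein array 2 for Fkbp5, Cdkn1a and Zfp36, the opposite direction, and on either side of it for Hsp90aa1. Rdh14, a retinol dehydrogenase, did not, at 6.82 and 7.03 against 5.44 and 6.23 and above both dairy arrays. The genes furthest below casein array 1 were Fmod at −3.30, Chad at −2.69, Pgc at −2.57, Col1a2 at −2.30 and Kera at −2.24, followed by Col1a1, Igfbp6, Padi2, Prelp and Thbs1. Of these 10 genes Padi2, an enzyme that converts arginine to citrulline, alone overlapped casein, at 5.24 and 4.89 against 6.84 and 4.82.

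**Figure D4:**
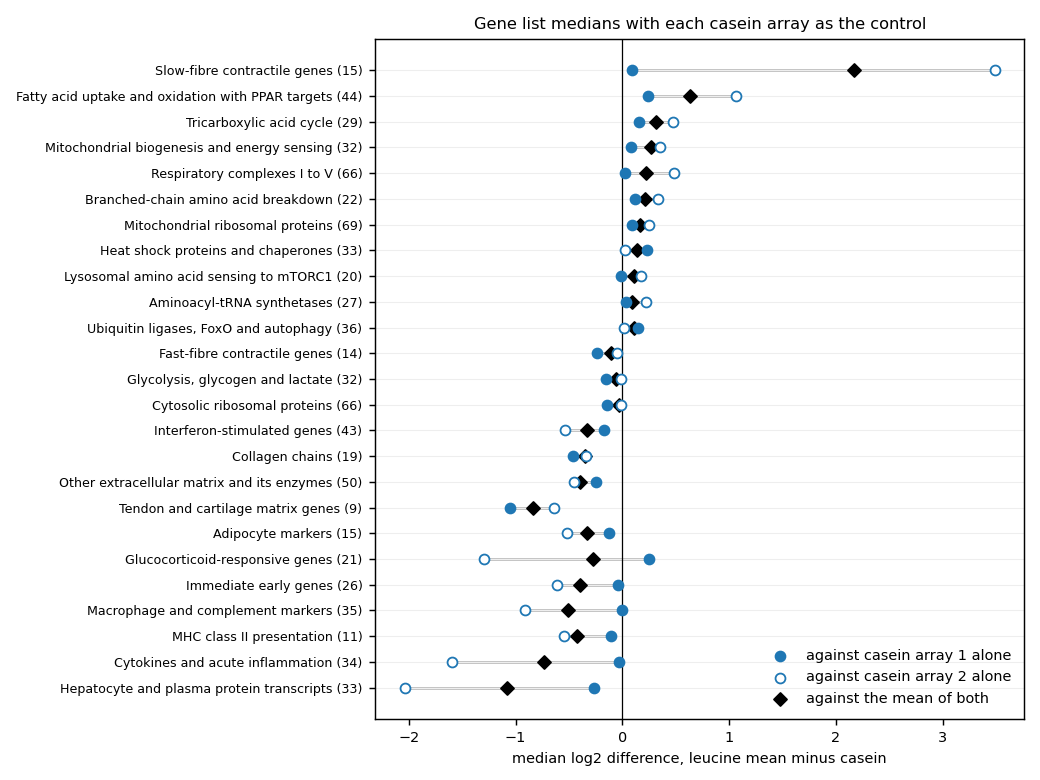
Median log2 difference of each gene list (horizontal axis, number of measured genes in parentheses) between the leucine mean and casein array 1 (filled circles), casein array 2 (open circles) or both (diamonds). The collagen and tendon lists lie below 0 with either control, at −0.46 and −0.34 for collagen chains, while slow-fibre genes move from 0.09 to 3.49. The tendon list was drawn up after its values were seen.

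Over the lists together, the choice of control mattered most for slow-fibre, hepatocyte, inflammation and glucocorticoid genes, as the plot of list medians shows. With casein array 2 left out, 5 of 45 list medians changed sign and 21 of 45 shrank to under 50% of their size. Collagen chains and the tendon list did not shrink, and lay further from 0 against casein array 1 than against the mean of both casein arrays. They were not alone in this. Without casein array 2 the median moved from 0.14 to 0.23 for chaperones, from −0.11 to −0.24 for fast-fibre genes and from −0.03 to −0.14 for cytosolic ribosomal proteins. The tendon list, counted among the 45, was drawn up after its values were seen, so its place here is not independent.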

How the data were processed

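Muscle RNA was read on 6 Affymetrix Rat Gene 1.0 ST arrays. The authors deposited log2 signals. The software named in the submitters' processing notes is Affymetrix Expression Console, and its version and normalization are not given in the sources used here. Of 29214 rows, 15310 carried a single gene name (15279 renamed through gene ID in the RefSeq table, 6 through accession, 25 kept as in the platform annotation). For the 527 genes with several rows the row with the highest mean was used, which left 14506 genes, with no filter on dim genes.

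Limma 3.58.1 in R 4.3.3 was fitted to all 6 arrays with diet as the only term (3 residual degrees of freedom) and Benjamini-Hochberg adjustment, threshold 0.05, after a check on simulated data. Errors are moderated standard errors of that fit. The members, the 44 gene lists, tests and alternatives were chosen with earlier results of these data known. Named genes were those past the threshold, the 15 per direction with the widest gap, the 10 per direction furthest from casein array 1, the 8 per direction resting on casein array 2, and in each list the first 3 and up to 4 per direction with the widest gap, the first rules above the median level. B2m, Bhlhe41, Casq2, Cd36, Col4a1, Comp, Cxcl10, Decr1, Gbp5, Hspa8, Pln, Ppara, Scx, Tnmd and Ucp3, the tendon list, the motifs and the sequences were chosen after their values were seen. Motifs were searched in the 250 bases before each start in RefSeq GRCr8 promoters. List counts are descriptions without a test.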

Additional observations from a re-analysis of the deposited data

How the results depend on the processing

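Leaving out single arrays gave between 0 and 1 genes past the adjusted threshold, with the 1 call, Il6 (adjusted p = 0.0445 in limma, against a lowest adjusted p between 0.18 and 0.542 under the other settings), made without casein array 1, when casein array 2 was the only control. At an unadjusted p under 0.05, higher genes numbered 723 to 1307 and lower genes 646 to 1469 when single arrays were left out. Genes over 2-fold higher numbered 73 to 204 and over 2-fold lower 59 to 384, with the low counts of both without casein array 2 and the high counts without casein array 1. Centring on array medians gave 1267 higher and 341 lower. Restricting the fit to the 7253 genes above the median level gave 480 higher and 287 lower, from fewer genes tested. With the replicate number as a block (replicate block), limma gave 857 higher and 762 lower and 0 past the adjusted threshold, with a lowest adjusted p of 0.402. The array differences of the diets correlated by 0.0865 (casein and dairy), 0.179 (casein and leucine) and 0.0536 (dairy and leucine), not all above 0.1, so replicate numbers were not read as pairs. The other alternatives, which were the 4 arrays alone, array weights, quantile normalization, the mean of rows of a gene, a mean-variance trend and a robust fit, kept the counts within 1.5 times.

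Of 153 named genes compared over the settings, 30 turned direction on leaving out an array, and the log2 differences over these settings are given as ranges. For slow-fibre genes they were −0.48 to 4.82 for Myh7, −0.67 to 3.35 for Myl2, −0.34 to 5.73 for Tnnc1, −0.048 to 4.53 for Tnni1 and −0.18 to 4.54 for Tnnt1. For stress-related genes they were −1.92 to 1.82 for Cdkn1a, −0.012 to 0.70 for Fbxo32, −0.32 to 2.11 for Fkbp5, −4.25 to 0.23 for Mt1, −4.25 to 0.042 for Mt2A, −1.77 to 0.25 for Padi2, −0.73 to 0.33 for Trim63, −1.30 to 1.08 for Tsc22d3 and −2.71 to 1.72 for Zfp36. For immune and clock genes they were −1.12 to 0.098 for Bhlhe41, −1.50 to 0.80 for Bmal1, −1.19 to 0.16 for Cd68, −1.45 to 0.81 for Dbp and −4.56 to 0.40 for Il6. For metabolic and signalling genes they were −0.065 to 0.19 for Acvr2b, −0.83 to 0.015 for Bcat2, −0.24 to 0.12 for Bckdha, −0.35 to 0.10 for Bckdk, −0.062 to 0.72 for Cpt1b and −0.037 to 0.18 for Cs, and further −0.098 to 0.28 for Lars1, −0.039 to 0.29 for Lars2, −0.15 to 0.23 for Sesn1, −0.34 to 0.64 for Sesn3 and −0.53 to 0.56 for Slc3a2. Centring turned Bckdha (0.042), Cdkn1a (0.051) and Fst (0.015), and quantile normalization turned Cs (−0.020), Myh4 (0.023), Sesn1 (−0.032) and Slc3a2 (−0.086). The cause of these changes was not tested. Background readings were not used here, so dim genes such as Isg15, Tnmd and Asns have no detection limit beside their values, and 2 arrays per diet limit the precision of all of them.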

Other observations

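Of the deposited rows, 13904 carried no single gene name and stood outside the comparison. On these the leucine arrays lay above both casein arrays for 2203 (15.8%) and below both for 2171 (15.6%), close to the shares among named genes. The gap exceeded 2-fold for 15 rows upward and 18 downward. Row 10881624 read 3.20 and 2.99 with leucine, 7.15 and 7.36 with casein and 4.61 and 7.10 with dairy. Row 10820434 read 4.32 and 5.74 against 7.74 and 7.54, with dairy at 5.81 and 8.18. Upward, row 10700464 read 5.65 and 5.66 against 3.78 and 3.96. Row 10701398 read 3.74 and 3.40 against 1.35 and 1.89, with dairy at 3.71 and 2.45. In the 2 downward rows dairy array 1 was the lower dairy array, as it was for Fmod, Chad and Kera. These rows were chosen by the width of their gap, and the genes they read are not given in the sources used here.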
